A study of Mus musculus with 12 samples.

Results

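The RNA of T lymphocytes in 4T1 tumours was followed through 34 genes that T cells are known for, in tumours of mice treated with extracellular vesicles (EVs) carrying different microRNA mimics. The cell line 4T1 comes from a mammary carcinoma of a BALB/c mouse, and the tumours grew under the skin of female BALB/c mice aged 6 to 8 weeks after injection of 100000 cells. EVs of MS-1, a mouse endothelial cell line, were electroporated with a mimic and injected beside the tumour, 3 µg every 2 days from day 5, and the tumours were taken on day 21. Mice of the ctrl group received the mimic of the nematode miRNA cel-miR-67, and those of the other groups received a mimic of miR-222-3p, of miR-183-5p or of miR-142-5p. So every group including ctrl received electroporated EVs, and no tumour without EVs was analysed here. There were 4 groups of 3 tumours, each tumour being 1 library of polyadenylated RNA. Per the study, this RNA came from cells collected from the tumours. The 34 genes were chosen by name, with earlier results of these data known, and are 34 of 35944 genes in the tables. Shares of the 34 genes set against all genes below therefore describe the list and do not test it. Of the 34 genes, 33 passed the filter of at least 10 estimated reads in at least 3 libraries that 15485 genes passed. The exception was Cd40lg, the co-stimulatory ligand of helper T cells, which reached 10 reads in 1 library only and was not tested.

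T cells recognise antigen through a receptor whose variable chains are carried to the membrane by the CD3 chains and the zeta chain Cd247. When the receptor binds, the kinase Lck, held by Cd4 or Cd8, phosphorylates these chains, and Zap70 and the adaptor Lat pass the signal on. The transcription factors Tcf7, Lef1 and Bcl11b mark the lineage, Foxp3 defines regulatory T cells, and the receptors Ccr7 and Il7r mark cells that circulate through lymph nodes or persist. In bulk RNA of a tumour these transcripts can reflect how many T cells there are and how much RNA each holds. Fewer cells of a type cannot be told apart from less RNA per cell. Members such as Ptpn22, Il2rb and Cd96 are also expressed by other cells, so a member's level need not follow T cells alone. The study also counted CD4+ and CD8+ cells of tumours by flow cytometry, and the RNA comparisons below ask whether the same cell types differ between groups at the level of transcripts.

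The 3 mature mouse miRNAs are shown because the groups are defined by them. They are RefSeq sequences on GRCm38.p6, written 5′ to 3′ with the seed (bases 2 to 8) in capitals. The 3 seeds differ from each other, and the exact mimic sequences and cel-miR-67 were not analysed here.
miR-142-5p (mmu-miR-142a-5p): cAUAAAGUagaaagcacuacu
miR-183-5p: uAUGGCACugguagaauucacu
miR-222-3p: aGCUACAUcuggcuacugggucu
The 3′ UTR of the most abundant coding transcript of each tested member was searched on the sense strand for the complement of the seeds, which is ACTTTAT for miR-142-5p, GTGCCAT for miR-183-5p and ATGTAGC for miR-222-3p. Of 33 members, 3 held a miR-142-5p match (9.09%, against 14.1% of 14725 tested genes with a 3′ UTR), 3 held a miR-183-5p match (9.09% against 9.30%) and 2 held a miR-222-3p match (6.06% against 9.43%). The median length of these 3′ UTRs was 762 bases in the members and 973 bases in all genes. The 26 other members held no match to any of the 3 seeds in this window. The members with a match were Cd28, Icos and Themis for miR-142-5p, Cd3d, Lck and Txk for miR-183-5p, and Cd4 and Themis for miR-222-3p. The matches followed by an A are printed below on GRCm38, in the orientation of the gene and with the match in capitals, since their genes are referred to again beside the comparisons. A match is a description of letters and not a measured site.
Cd3d, miR-183-5p match, chr9:44986352-44986378 (+): gtttctcaaaGTGCCATagcaacggcg
Lck, miR-183-5p match, chr4:129548718-129548744 (-): tggaattcctGTGCCATatctgtgtgg
Txk, miR-183-5p match, chr5:72696010-72696036 (-): ttttataatcGTGCCATatgttattta
Cd4, miR-222-3p match, chr6:124866159-124866185 (-): gaccagatgaATGTAGCagacacgctg
Themis, miR-142-5p match, chr10:28881664-28881690 (+): tttgccttgtACTTTATatactatatt

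Estimated reads per library ranged from 20285968 to 27021401. Tumour 3 of the miR-142-5p group did stand apart. In it 33 of the 34 members reached their highest level of the 12 tumours, against 16.2% of the 15485 tested genes, and the summed level of the members was 715 TPM (a level corrected for transcript length and library size) against 120 to 229 TPM in the other 11 tumours. Only Il7r was higher elsewhere. The same library stood apart in markers of other cells: the 10 B cell markers summed to 639 TPM against 8.71 to 25.9 TPM in the other 11 tumours, with each of the 10 highest there, and their lead gene Cd79b, a chain of the B cell receptor, stood at 144 TPM against 0.596 to 1.40. The 6 markers of lymph node stroma and vessels summed to 719 TPM against 0 to 6.81 TPM. Among these the chemokine Ccl21a stood at 315 TPM against 0 to 6.53, and Glycam1, a mucin of lymph node vessels, at 275 TPM against 0 in each of the other 11 tumours. Tumour epithelium markers summed to 1263 TPM there and to between 1342 and 1851 TPM elsewhere. These lists were chosen with earlier results of these data known, so they describe the library and are not an independent check. The part of these markers in the T cell values was not tested, and the comparisons that include this library are given with and without it. Tumour 3 of the miR-183-5p group stood at the other end. It held the lowest level of the 12 tumours in 16 of the 34 members and was tied at 0 for Cd40lg, while among the 11 tumours without miR-142-5p tumour 3 it held the lowest level in 11.5% of tested genes. Its cytotoxic and natural killer (NK) cell markers, 56.6 TPM in sum, and its macrophage markers, 1174 TPM, were the lowest of the 12 tumours too.

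**Figure D1:**
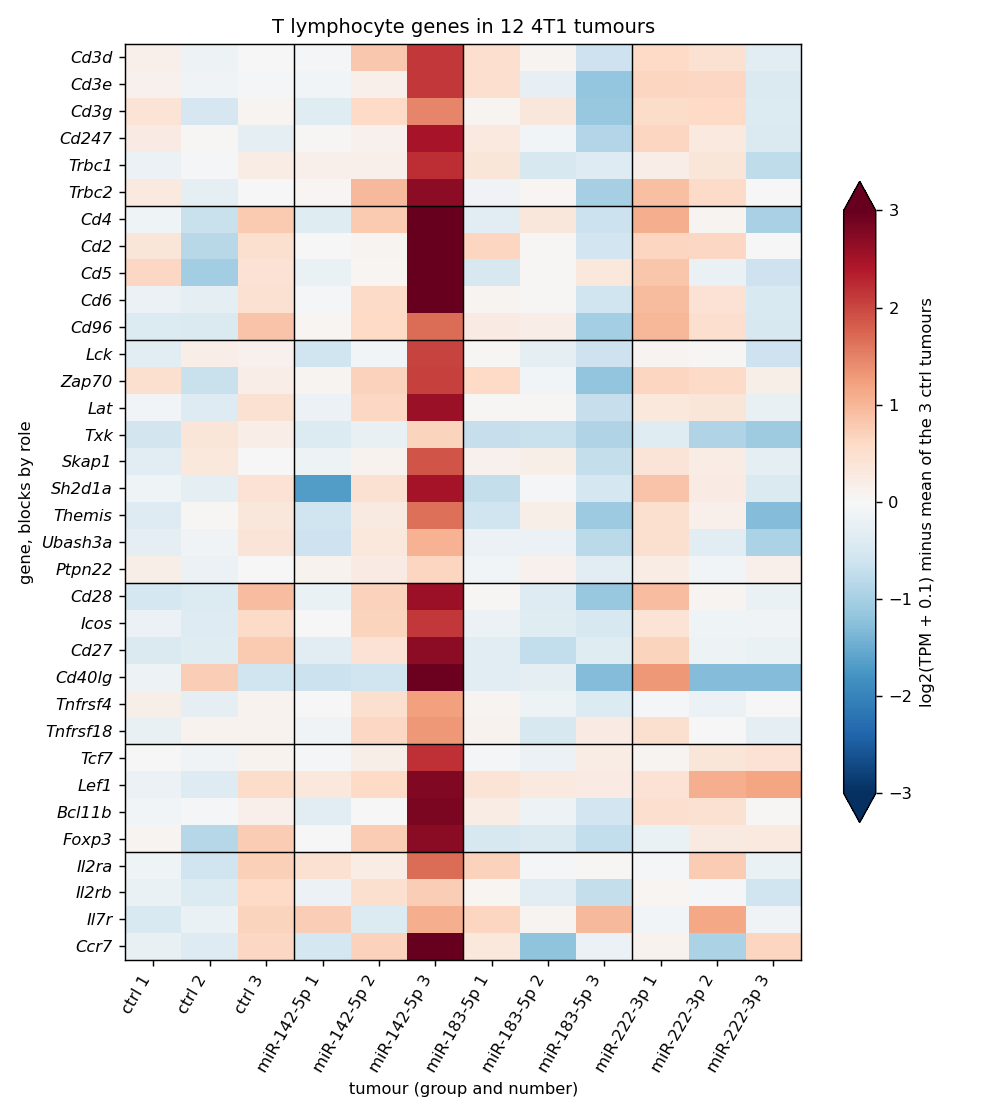
Level of each of the 34 genes (rows, in blocks by role) in each of the 12 tumours (columns), as log2(TPM + 0.1) minus the mean of the 3 ctrl tumours, with the colour scale ending at 3 in either direction. The column of miR-142-5p tumour 3 is red in every row and among the deepest in Cd5 and Ccr7, while miR-183-5p tumour 3 holds the lowest value of the 12 tumours in 16 rows.

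The level of the members in the other 11 tumours was low. Their median was at least 10 TPM in 5 of 34 genes, from 1 to 10 TPM in 24 and under 1 TPM in 5. The highest medians were those of Trbc1 (22.9 TPM) and Trbc2 (19.8 TPM), the constant segments of the receptor beta chain, then Cd3g (18.6 TPM), Ptpn22 (16.8 TPM) and Lck (13.5 TPM). The lowest were Cd40lg (0.0642 TPM), Bcl11b (0.232 TPM) and Foxp3 (0.489 TPM). The ranges of Trbc1 (12.2 to 26.5 TPM), Trbc2 (9.44 to 37.4 TPM), Cd3g (7.98 to 26.8 TPM) and Ptpn22 (12.5 to 18.3 TPM) over these 11 tumours overlapped, so their order is not fixed by these data. Members varied between these tumours with a median coefficient of variation of 33.7%, from 11.9% in Ptpn22 to 51.1% in Cd4 among those tested.

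The receptor complex holds the genes that define a T cell. Cd3g, Cd3d and Cd3e lie side by side on mouse chromosome 9 on GRCm38, Cd3g at chr9:44969572-44980431 on the minus strand, Cd3d at chr9:44981786-44987339 on the plus strand and Cd3e at chr9:44998740-45009627 on the minus strand. Cd3e stood at 8.15, 7.0 and 7.33 TPM in ctrl tumours 1 to 3, at 7.04, 8.29 and 32.7 TPM in the miR-142-5p tumours, at 10.6, 6.27 and 3.31 TPM in the miR-183-5p tumours and at 11.7, 11.6 and 5.5 TPM in the miR-222-3p tumours. Each treated group therefore overlapped ctrl, and miR-142-5p tumour 3 was 2.81-fold the highest of the other 11 tumours. Cd3g, whose product pairs with that of Cd3e, stood at 23.5, 12.4 and 18.6 TPM in ctrl, at 13.6, 26.5 and 48.4 TPM with miR-142-5p, at 18.6, 22.3 and 7.98 TPM with miR-183-5p and at 25.8, 26.8 and 13.2 TPM with miR-222-3p. Cd3d, which carries the miR-183-5p match printed above, stood at 4.46, 3.59 and 4.06 TPM in ctrl, at 3.95, 7.09 and 17.8 TPM with miR-142-5p, at 5.73, 4.28 and 2.59 TPM with miR-183-5p and at 6.10, 5.60 and 3.16 TPM with miR-222-3p. In all 3 genes the tumours numbered 3 were the lowest of the miR-183-5p and miR-222-3p groups. Cd247 followed the same order, with 2.42, 2.09 and 1.66 TPM in ctrl, 2.08, 2.22 and 11.8 TPM with miR-142-5p, 2.52, 1.91 and 1.06 TPM with miR-183-5p and 3.22, 2.51 and 1.47 TPM with miR-222-3p. Trbc1 and Trbc2 reached 96.9 and 122 TPM in miR-142-5p tumour 3. Of the 31-base words of Trbc1, 45.4% also occur in Trbc2, so the split of reads between the pair is uncertain.

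The promoters of the 3 CD3 genes are shown because these neighbours had their highest level in the same tumour. Each window runs from 250 bases before the start to 50 bases after it, in the orientation of the gene, from RefSeq on GRCm38.p6. Capitals mark a match on either strand to GGAAGT (ETS factors), TGTGGT (RUNX factors) or CTTTGA (TCF and LEF factors), and 22 of the 34 members had a window in this reference.
Cd3g, chr9:44980382-44980681 (-): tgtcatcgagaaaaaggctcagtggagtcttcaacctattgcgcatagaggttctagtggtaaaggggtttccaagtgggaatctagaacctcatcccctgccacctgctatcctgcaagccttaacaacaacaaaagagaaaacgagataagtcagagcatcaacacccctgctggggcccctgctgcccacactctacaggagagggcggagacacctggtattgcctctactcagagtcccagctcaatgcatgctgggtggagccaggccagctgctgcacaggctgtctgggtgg
Cd3d, chr9:44981536-44981835 (+): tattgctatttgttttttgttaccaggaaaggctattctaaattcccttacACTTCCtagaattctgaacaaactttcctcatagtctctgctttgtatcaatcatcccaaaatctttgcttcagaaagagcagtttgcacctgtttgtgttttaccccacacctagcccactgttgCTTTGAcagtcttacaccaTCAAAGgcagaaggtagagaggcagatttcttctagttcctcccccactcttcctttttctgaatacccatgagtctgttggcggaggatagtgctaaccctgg
Cd3e, chr9:45009562-45009861 (-): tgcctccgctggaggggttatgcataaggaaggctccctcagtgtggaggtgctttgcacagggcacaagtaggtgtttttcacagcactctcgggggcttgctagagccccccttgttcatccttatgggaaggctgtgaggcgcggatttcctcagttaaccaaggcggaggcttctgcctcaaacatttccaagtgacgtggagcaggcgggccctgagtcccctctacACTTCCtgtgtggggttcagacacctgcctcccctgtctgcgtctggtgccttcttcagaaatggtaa
The Cd3d window held 1 ETS match, 199 bases before the start, and 2 TCF/LEF matches, 73 and 54 bases before it, while the Cd3e window held 1 ETS match, 18 bases before the start. The Cd3g window held none of these letters. The ETS letters occurred in 48.5% of the 33 windows of the members (some genes have several) and in 23.8% of all 32851 windows, the RUNX letters in 21.2% against 16.8%, and the TCF/LEF letters in 21.2% against 16%. The members were picked by name as T cell genes, with earlier results of these data known, so these shares describe the choice and were not tested.

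Among the co-receptor and surface molecules, the excess in miR-142-5p tumour 3 was larger than in the receptor complex. Its level divided by the median of the other 11 tumours had a median of 9.38 over these 5 genes (2.96 to 12.6), against 4.35 over the 6 receptor complex genes (2.60 to 6.19). Cd4, the co-receptor of helper and regulatory T cells at chr6:124864692-124888221 on the minus strand, stood at 1.49, 0.994 and 2.87 TPM in ctrl, at 1.25, 2.89 and 15.2 TPM with miR-142-5p, at 1.27, 2.09 and 1.01 TPM with miR-183-5p and at 3.58, 1.74 and 0.774 TPM with miR-222-3p. The groups overlapped, and within ctrl alone the highest tumour held nearly as much Cd4 as miR-142-5p tumour 2. Cd5, a damper of receptor signalling, reached 13.7 TPM in miR-142-5p tumour 3 against 0.458 to 1.97 TPM elsewhere, the adhesion molecule Cd2 24.0 TPM against 1.45 to 4.23 TPM, and Cd6, a receptor for an adhesion molecule of antigen-presenting cells, 11.4 TPM against 0.743 to 2.36 TPM. Cd96, found on NK cells as well as T cells, was less far from the rest at 4.06 TPM against 0.545 to 2.5 TPM.

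The 9 signalling genes ranged widely. Lck stood at 11.3, 16.5 and 15.5 TPM in ctrl, at 9.35, 13.5 and 58.3 TPM with miR-142-5p, at 14.6, 11.8 and 9.30 TPM with miR-183-5p and at 15.0, 14.5 and 9.20 TPM with miR-222-3p. The other 11 tumours thus lay within 9.20 to 16.5 TPM, and miR-142-5p tumour 3 was 3.53-fold the highest of them. Zap70, the kinase recruited to the phosphorylated chains, stood at 3.57, 1.56 and 2.92 TPM in ctrl, at 2.68, 4.13 and 10.8 TPM with miR-142-5p, at 3.92, 2.40 and 1.06 TPM with miR-183-5p and at 4.04, 3.8 and 2.87 TPM with miR-222-3p. Txk, a Tec family kinase whose 3′ UTR holds a miR-183-5p match, stood at 1.69, 3.27 and 2.95 TPM in ctrl, at 1.89, 2.15 and 4.11 TPM with miR-142-5p, at 1.53, 1.57 and 1.32 TPM with miR-183-5p and at 1.94, 1.31 and 1.16 TPM with miR-222-3p. All 3 miR-183-5p tumours were below all 3 ctrl tumours, the closest pair being 1.57 and 1.69 TPM. The adaptor Lat reached 29.1 TPM in miR-142-5p tumour 3 against 2.90 to 7.32 TPM elsewhere, the adaptor Skap1 16.3 against 2.61 to 5.69 TPM, and Sh2d1a, the adaptor of the SLAM receptors, 7.83 against 0.341 to 2.43 TPM. Themis, needed for T cell selection in the thymus, reached 2.95 against 0.297 to 1.27 TPM and Ubash3a, a suppressor of receptor signalling, 5.85 against 1.41 to 3.93 TPM. Ptpn22, a phosphatase that other leukocytes also express, stood at 24.3 TPM against 12.5 to 18.3 TPM. Of the 9 genes, Ptpn22 was the closest to the median of the other 11 tumours (1.45-fold) and Txk the closest to the highest of them (1.26-fold).

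Among the 6 co-stimulatory molecules, Cd27 stood at 24.6 TPM in miR-142-5p tumour 3 and at 2.21 to 6.52 TPM elsewhere, and Cd28, the main co-stimulatory receptor, at 5.48 against 0.331 to 1.70 TPM. Icos, a receptor of activated and regulatory T cells, stood at 1.16, 0.994 and 2.01 TPM in ctrl, at 1.31, 2.18 and 6.16 TPM with miR-142-5p, at 1.17, 1.01 and 0.925 TPM with miR-183-5p and at 1.80, 1.21 and 1.23 TPM with miR-222-3p. The miR-183-5p tumours were thus below each miR-142-5p and each miR-222-3p tumour but overlapped ctrl. Tnfrsf4 (OX40) and Tnfrsf18 (GITR), 2 receptors of the TNF family that are high on regulatory T cells, stood at 12.8 and 13.8 TPM in miR-142-5p tumour 3 against 4.00 to 7.49 and 3.92 to 8.59 TPM elsewhere. Cd40lg had 32 estimated reads in miR-142-5p tumour 3 and between 0 and 9 in the other 11 tumours.

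Of the 4 transcription factors, Tcf7, which keeps T cells able to renew, varied little outside miR-142-5p tumour 3. It stood at 6.29, 5.75 and 6.70 TPM in ctrl, at 6.03, 7.02 and 28.9 TPM with miR-142-5p, at 6.08, 5.47 and 7.29 TPM with miR-183-5p and at 6.58, 8.01 and 8.4 TPM with miR-222-3p. Unlike the CD3 genes, Tcf7 was higher in miR-183-5p tumour 3 than in the other two tumours of its group. Its paralogue Lef1 stood at 1.14, 0.969 and 1.93 TPM in ctrl, at 1.63, 2.02 and 9.39 TPM with miR-142-5p, at 1.74, 1.6 and 1.54 TPM with miR-183-5p and at 1.77, 2.86 and 3.08 TPM with miR-222-3p. Foxp3, at chrX:7573644-7595245 on the plus strand, stood at 0.514, 0.221 and 0.891 TPM in ctrl, at 0.489, 0.879 and 3.66 TPM with miR-142-5p, at 0.317, 0.328 and 0.247 TPM with miR-183-5p and at 0.403, 0.594 and 0.616 TPM with miR-222-3p. The miR-183-5p tumours lay below every tumour of both other miRNA groups, and inside the range of ctrl. These levels rest on 12 to 33 estimated reads per library outside miR-142-5p tumour 3, which had 159. Bcl11b, required for T lineage commitment, stood at 2.24 TPM there and between 0.121 and 0.370 TPM elsewhere.

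The 4 cytokine and chemokine receptors held both extremes of the excess of miR-142-5p tumour 3 over the highest other tumour. Ccr7, the receptor that leads cells into lymph nodes, at chr11:99144196-99155077 on the minus strand, stood at 0.976, 0.851 and 1.82 TPM in ctrl, at 0.770, 1.91 and 16.1 TPM with miR-142-5p, at 1.46, 0.439 and 1.01 TPM with miR-183-5p and at 1.24, 0.545 and 1.86 TPM with miR-222-3p. Its level in miR-142-5p tumour 3 was 15.9-fold the median of the other 11 tumours and 8.44-fold the highest of them, the largest excess over the highest among the 34 members. Il7r, the receptor of the survival cytokine IL-7, stood at 3.14, 3.77 and 7.06 TPM in ctrl, at 7.39, 3.25 and 9.4 TPM with miR-142-5p, at 6.87, 4.61 and 8.62 TPM with miR-183-5p and at 4.12, 9.98 and 4.04 TPM with miR-222-3p. Here miR-222-3p tumour 2 was the highest, and miR-183-5p tumour 3 was among the highest instead of the lowest. Il2ra, the high-affinity chain of the IL-2 receptor, stood at 1.25, 0.877 and 2.32 TPM in ctrl, at 1.93, 1.63 and 4.64 TPM with miR-142-5p, at 2.28, 1.31 and 1.41 TPM with miR-183-5p and at 1.34, 2.41 and 1.19 TPM with miR-222-3p. Il2rb, which NK cells carry as well, reached 18.5 TPM in miR-142-5p tumour 3 and 16.9 TPM in ctrl tumour 3. Over all 34 members the level in miR-142-5p tumour 3 divided by the median of the other 11 tumours was at least 8 in 8 genes, from 4 to 8 in 13, from 2 to 4 in 11 and under 2 in 2, with a median of 4.43 against 1.08 over all tested genes.

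**Figure D2:**
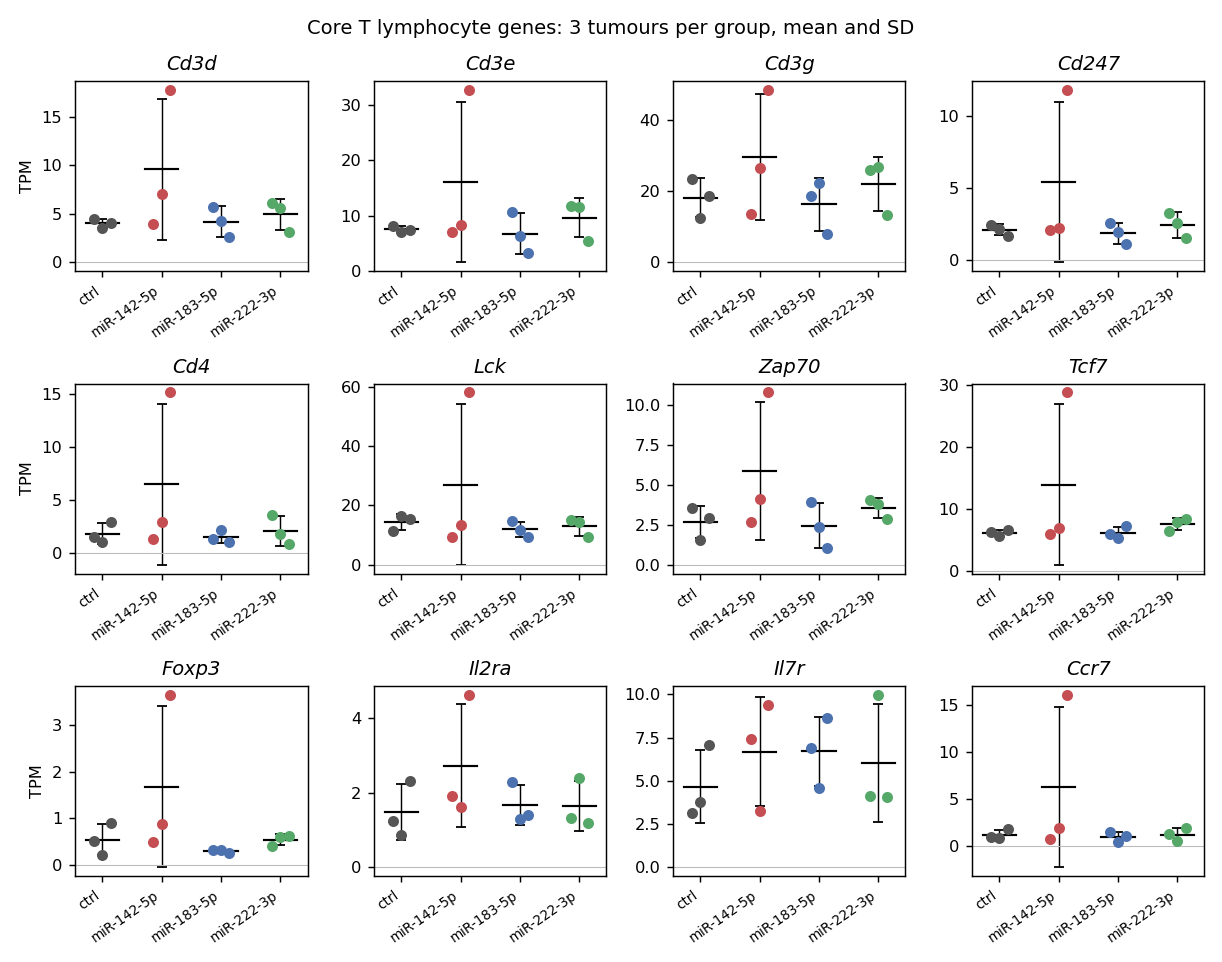
TPM of 12 core genes (1 panel each, each with its own axis, a grey line marking 0) in the 4 groups, with 1 point per tumour in the order 1 to 3, the mean as a bar and the SD as whiskers (n = 3). The third point of the miR-142-5p group is the highest of the 12 tumours in every panel except Il7r, where a miR-222-3p tumour is higher at 9.98 TPM.

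**Figure D3:**
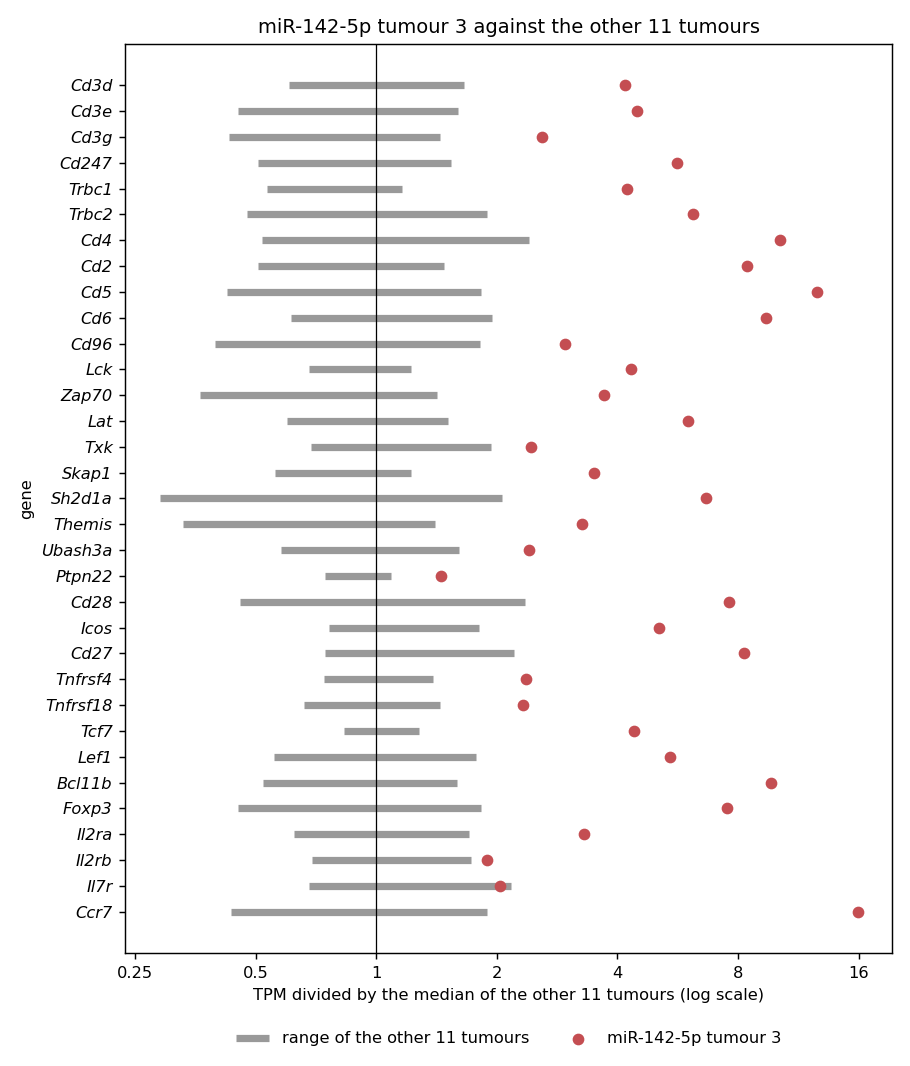
TPM of the 33 tested genes in miR-142-5p tumour 3 (points) divided by the median of the other 11 tumours, on a log scale, with the range of those 11 tumours as a grey bar. The point lies outside the bar in every gene except Il7r, and farthest to the right in Ccr7 (15.9) and Cd5 (12.6).

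The comparison of miR-142-5p with ctrl asked whether T cell transcripts differed in tumours that received miR-142-5p-EVs. All 33 tested members had a log2 fold change above 0, against 48.8% of all genes, with a median of 1.16 over the members and of -0.00471 over all genes. None passed the threshold of an adjusted p of 0.05 (DESeq2 Wald test over all genes, Benjamini-Hochberg), where 0.00648% of 15438 genes passed, and the lowest adjusted p of a member was 0.553. An unadjusted p under 0.05 was reached by 22 members (66.7%, all of them higher) against 2.29% of all genes that were higher. In either direction 553 of 15485 genes reached such a p. Without ctrl tumour 2 it was reached by 11 (against 2.61% of all genes in either direction). In edgeR's quasi-likelihood test it was reached by 18 members (against 521 of 15485 genes) and in limma by 2 (against 352). Neither called a member after adjustment, nor any other gene. No member had its 3 miR-142-5p tumours all above its 3 ctrl tumours (against 2.34% of all genes). The core members with the largest difference were Ccr7, with a log2 fold change of 2.31 (SE 0.80, adjusted p = 0.788), Cd4, with 1.81 (SE 0.85, adjusted p = 1), and Foxp3, with 1.6 (SE 0.65, adjusted p = 1). Of the others, Cd3d differed by 1.22 (SE 0.44), Cd3e by 1.05 (SE 0.51), Cd247 by 1.32 (SE 0.58), Zap70 by 1.09 (SE 0.52) and Tcf7 by 1.12 (SE 0.42). Lck differed by 0.87 (SE 0.46), Il2ra by 0.88 (SE 0.44), Cd3g by 0.66 (SE 0.43) and Il7r by 0.55 (SE 0.42), and the adjusted p of these 9 lay between 0.895 and 1. The members with a miR-142-5p match were higher too with all 12 tumours. Cd28 differed by 1.39 (SE 0.62), Icos by 1.19 (SE 0.45) and Themis by 0.75 (SE 0.59), and none was called. The part of the match in these 3 genes was not tested.

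Without miR-142-5p tumour 3, the median log2 fold change of the members was 0.21. Of the 33 members, 26 had a value above 0 (78.8%, against 48.4% of all genes), none had an unadjusted p under 0.05 (against 3.07% of all genes) and none passed after adjustment (against 0.0194%). Ccr7 then differed by 0.20 (SE 0.64), Cd4 by 0.28 (SE 0.59), Foxp3 by 0.41 (SE 0.59), Cd3e by 0.09 (SE 0.42) and Lck by -0.27 (SE 0.26), each with an adjusted p of 1 (DESeq2). The 95% interval of Cd3e ran from -0.74 to 0.91. Leaving out miR-142-5p tumour 1 instead moved 7 members past the threshold (against 0.535% of all genes), which were Ccr7, Cd3d, Cd6, Icos, Lat, Lef1 and Trbc2, with a median over the members of 1.47. Among them Trbc2 differed by 1.98 (SE 0.435, adjusted p = 0.00581, DESeq2), Ccr7 by 2.83 (SE 0.731) and Cd3d by 1.57 (SE 0.417), and the other adjusted p values lay between 0.0207 and 0.0491. The miR-142-5p group then held tumours 2 and 3 only.

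The comparison of miR-183-5p with ctrl gave a median near 0, with wide intervals for single genes. The median log2 fold change of the members was -0.16, with 26 of 33 below 0 (78.8%, against 52.7% of all genes) and 7 above it. No member and no other gene passed the threshold (0% of 15438 genes, DESeq2), and edgeR and limma called no member and no other gene either. An unadjusted p under 0.05 was reached by 1 member (3.03%), against 1.59% of all genes that were lower. In either direction 495 of 15485 genes reached such a p. The count of members was the same in edgeR (against 446 genes) and in limma (against 395). The DESeq2 member was Txk, named here after its values were seen, with a log2 fold change of -0.79 (SE 0.33, unadjusted p = 0.0158, adjusted p = 1). With miR-142-5p tumour 3 left out the values were -0.79 (SE 0.29), still with 1 such member against 3.31% of all genes and no call (0%), and without miR-183-5p tumour 3 or without ctrl tumour 2 no member had an unadjusted p under 0.05. It was also the only member whose groups did not overlap, 1 of 33 (3.03%) against 4.73% of all genes that were lower in each miR-183-5p tumour. Of the core members, Foxp3 differed by -0.82 (SE 0.67), Il7r by 0.57 (SE 0.42), Ccr7 by -0.29 (SE 0.81), Cd4 by -0.25 (SE 0.86), Lck by -0.24 (SE 0.46), Il2ra by 0.20 (SE 0.44), Cd247 by -0.16 (SE 0.59), Cd3g by -0.15 (SE 0.44), Cd3e by -0.14 (SE 0.51), Zap70 by -0.12 (SE 0.52), Cd3d by 0.07 (SE 0.45) and Tcf7 by 0.03 (SE 0.42). The adjusted p was 1 for each of these 12. Their 95% intervals ran, for example, from -1.94 to 1.44 for Cd4, from -2.14 to 0.50 for Foxp3 and from -0.80 to 0.85 for Tcf7. Leaving out miR-183-5p tumour 3, the library in which many members were lowest, gave a median of -0.04 with 16 of 33 members above 0. The signs of Cd3e (0.18), Cd3g (0.18), Cd247 (0.11) and Zap70 (0.24) then turned from below to above 0, and that of Tcf7 (-0.09) from above to below. Of the members with a miR-183-5p match, Cd3d and Lck had the values given here and did not separate from ctrl. The other, Txk, also differed with miR-222-3p (-0.84, SE 0.33), for which its 3′ UTR held no match. The part of the match in these values was not tested.

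The comparison of miR-222-3p with ctrl gave a small median of the opposite sign. The median log2 fold change of the members was 0.16, with 25 of 33 above 0 (75.8%, against 48.0% of all genes), and no member passed the threshold against 0.0259% of all genes (DESeq2). The lowest adjusted p of a member was 1. No member was called by edgeR, which called 0 genes, or by limma, which called 1. In DESeq2 an unadjusted p under 0.05 was reached by 357 of 15485 genes in either direction. It was reached by 1 member each in edgeR (against 319 genes) and limma (against 309). Txk again was the only member reaching it in DESeq2 (3.03%, against 1.11% of all genes that were lower), with a log2 fold change of -0.84 (SE 0.33). Its miR-222-3p and ctrl levels overlapped, since 1.94 TPM lay above the lowest ctrl tumour. Without ctrl tumour 2 or without miR-222-3p tumour 3 no member had such a p, and both comparisons that named Txk share their ctrl tumours. Lef1 differed by 0.95 (SE 0.53, adjusted p = 1, DESeq2) and had an unadjusted p of 0.0716 with all 12 tumours and of 0.00404 without miR-142-5p tumour 3, where the SE was 0.33. Txk and Lef1 then made 2 members with an unadjusted p under 0.05 (6.06%, against 2.37% of all genes), and none was called (0.0259% of all genes). Of the core members, Il7r differed by 0.40 (SE 0.42), Zap70 by 0.39 (SE 0.52), Cd3e by 0.33 (SE 0.51), Tcf7 by 0.30 (SE 0.42), Cd3d by 0.28 (SE 0.45), Cd3g by 0.23 (SE 0.44), Cd247 by 0.18 (SE 0.58), Cd4 by 0.16 (SE 0.86), Il2ra by 0.16 (SE 0.44), Ccr7 by 0.03 (SE 0.80), Foxp3 by 0.01 (SE 0.67) and Lck by -0.17 (SE 0.46). For Cd4, whose 3′ UTR holds the miR-222-3p match, the miR-222-3p group held both the lowest (0.774 TPM) and, outside miR-142-5p tumour 3, the highest (3.58 TPM) level. The median was 0.16 without miR-142-5p tumour 3 as well, and -0.01 without ctrl tumour 2. The 3 miR-222-3p libraries and miR-183-5p tumour 3 also differed from the other 8 in how reads were split between mt-Co2 and its pseudogene Gm28661, and no ctrl library was among these 4. A fit with a term for these 2 sets, added after seeing the data for this comparison, takes the set difference from miR-183-5p tumour 3 against tumours 1 and 2 alone. It gave a median of 0.49 with 26 of 33 members above 0, called no member (0.0906% of all genes) and gave 2 members an unadjusted p under 0.05 (against 2.68% of all genes), Cd3g (1.59) and Zap70 (1.96), in place of Txk.

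**Figure D4:**
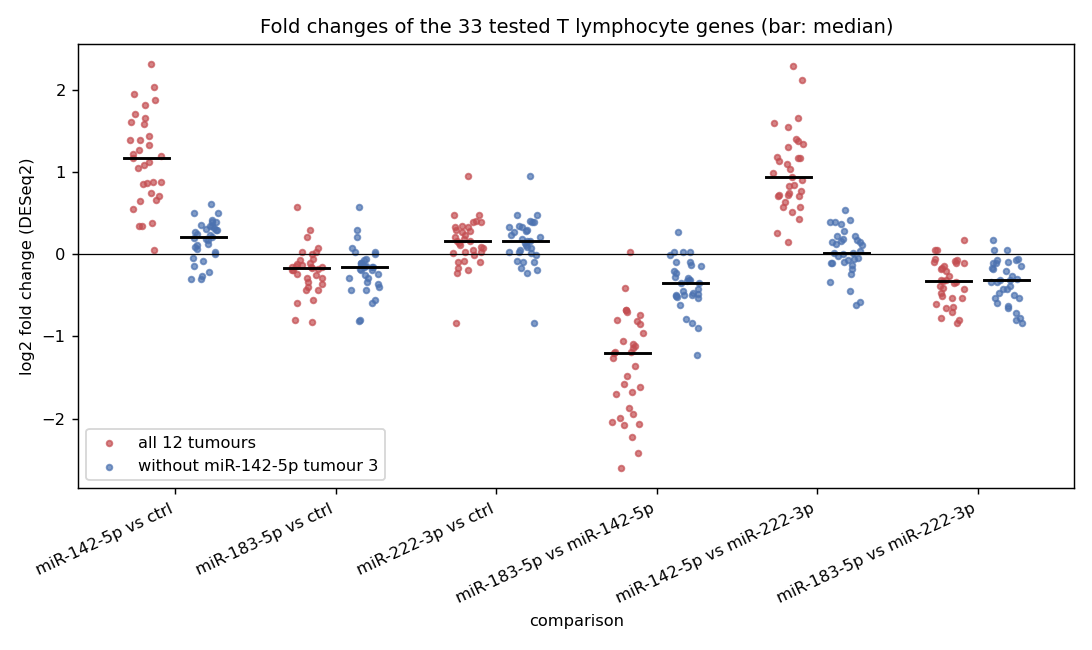
Log2 fold change (DESeq2) of the 33 tested genes in each of the 6 comparisons, 1 point per gene with the median as a bar, from all 12 tumours (red) and without miR-142-5p tumour 3 (blue). The median of the 3 comparisons that hold the miR-142-5p group moves towards 0 without that tumour, from 1.16 to 0.21 against ctrl.

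Comparisons between miRNA groups asked whether the mimics differed from each other. Between miR-183-5p and miR-142-5p the median log2 fold change of the members was -1.20, with 32 of 33 below 0 (97%, against 50.5% of all genes). No member passed the threshold (0.0518% of all genes did), while 28 had an unadjusted p under 0.05 (84.8%, all lower), against 4.85% of all genes that were lower. In either direction 1226 of 15485 genes reached such a p. In edgeR 25 members did (against 1132 genes) and in limma 9 (against 907), and neither called any gene. The lowest adjusted p values were those of Trbc2 (0.0875) and Foxp3 (0.0975, DESeq2, Benjamini-Hochberg). Foxp3 differed by -2.42 (SE 0.66). It was called in a DESeq2 fit of these 2 groups alone (adjusted p = 0.0479), where 71 of 15485 genes were called and miR-142-5p tumour 3 was kept. Without miR-142-5p tumour 3 the median was -0.35, none was called (0.0452% of all genes) and 3 members had an unadjusted p under 0.05 (9.09%, against 5.29% of all genes), which were Foxp3, Icos and Trbc2. Without miR-142-5p tumour 1 there were 16 calls (2.85% of all genes) and without tumour 2 there were 2 (0.355%). Leaving out miR-222-3p tumour 3, which is in neither group, gave 1 (0.204%), Trbc2. Its log2 fold change was -1.87 (SE 0.48) in that fit and with all 12 tumours. The adjusted p of Trbc2 was 0.0478 there against 0.0875 (DESeq2), with 14235 against 15438 genes given an adjusted p. Without miR-183-5p tumour 3 there were 14 members with an unadjusted p under 0.05, and 15 with the library set term (against 4.32% of all genes in either fit). The set term takes its difference from miR-183-5p tumour 3 against tumours 1 and 2, so here it sets that tumour aside. These 2 fits are therefore not separate checks. In 3 members (9.09%, against 5.60% of all genes) all miR-183-5p tumours were below all miR-142-5p tumours, namely Foxp3, Icos and Txk.

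Between miR-183-5p and miR-222-3p the median was -0.32, with 30 of 33 members below 0 (90.9%, against 50.8% of all genes). No member was called (0.0324% of all genes) and none had an unadjusted p under 0.05 (1.65% of all genes were lower at that p, and 501 of 15485 in either direction). In edgeR and limma 0 members reached either threshold, against 447 and 420 genes at the unadjusted one and 0 called in either. In 4 members (12.1%, against 5.01% of all genes) every miR-183-5p tumour was below every miR-222-3p tumour, and these were Cd27, Foxp3, Icos and Lef1, named after their values were seen. Foxp3 differed by -0.83 (SE 0.67, 95% interval -2.15 to 0.48) and Lef1 by -0.65 (SE 0.52). Without miR-142-5p tumour 3 there were 2 members with an unadjusted p under 0.05 (6.06%, against 3.35% of all genes), Lef1 and Trbc2, and none was called (0.0452% of all genes). Leaving out miR-183-5p tumour 3 gave a median of -0.15. The library set term described above gave a median of -0.84. With that term this comparison rests on miR-183-5p tumour 3 alone against the miR-222-3p tumours, so only the size is given. Between miR-142-5p and miR-222-3p the median was 0.94, with all 33 members above 0 against 51.0% of all genes, and no member was called (0.0389% of all genes). An unadjusted p under 0.05 was reached by 18 members (54.5%, all higher), against 2.19% of all genes that were higher. In either direction 559 of 15485 genes reached it, and 12 members did in edgeR (against 527 genes) and 2 in limma (against 400). Neither of these called a member, with 0 genes called in edgeR and 1 in limma. No member had its miR-142-5p tumours all above its miR-222-3p tumours (2.06% of all genes did). Without miR-142-5p tumour 3 the median was 0.02, with 19 of 33 above 0, no member called (0.0129% of all genes) and none with an unadjusted p under 0.05 (2.53% of all genes), and without miR-142-5p tumour 1 Ccr7 was called (0.488% of all genes were). Without miR-222-3p tumour 3 there were 8 members with an unadjusted p under 0.05 (against 3.03% of all genes). The library set term gave a median of 0.41 with 24 of 33 above 0, no call (0.136% of all genes) and no member at that p (2.44% of all genes).

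A test of any difference among the 4 groups (likelihood ratio test in DESeq2) called no member, against 0.0595% of all genes with an adjusted p. It gave an unadjusted p under 0.05 in 20 members (60.6%, against 4.75% of all genes), the lowest adjusted p being that of Trbc2 (0.136). At an unadjusted p under 0.05 edgeR gave 15 members (against 537 of 15485 genes) and limma 0 (against 395). Neither called a member, with 0 genes called in edgeR and 1 in limma. Omitting miR-142-5p tumour 3, the test called none (0.0323% of all genes) and 3 members had an unadjusted p under 0.05 (9.09%, against 3.49% of all genes), which were Txk (0.00850), Lef1 (0.0292) and Trbc2 (0.0408). Without miR-142-5p tumour 1 there were 16 calls (1.55% of all genes), and without tumour 2 there were 3 (0.448%).

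Ratios of 2 genes within a tumour depend less on how many T cells the tumour held, and were used to ask whether the make-up of the T cell RNA differed. They describe T cells only as far as both RNAs come from T cells. In miR-142-5p tumour 3 the summed B cell markers were 49.1-fold the median of the other 11 tumours. The part of other cells in the ratios was not tested. Cd4 divided by Cd3e was 0.183, 0.142 and 0.392 in ctrl, 0.178, 0.348 and 0.464 with miR-142-5p, 0.120, 0.333 and 0.304 with miR-183-5p and 0.307, 0.149 and 0.141 with miR-222-3p. The groups overlapped, and the span inside ctrl covered 9 of the 12 tumours. Cd4 divided by Cd8a, a chain of the co-receptor of cytotoxic T cells, was 0.147, 0.105 and 0.292 in ctrl, 0.137, 0.229 and 0.661 with miR-142-5p, 0.122, 0.177 and 0.174 with miR-183-5p and 0.227, 0.121 and 0.110 with miR-222-3p. In miR-142-5p tumour 3 this ratio was the highest of the 12 tumours, Cd8a itself standing at 23.0 TPM against 5.77 to 15.8 TPM and its partner Cd8b1 at 19.7 TPM against 3.76 to 9.44 TPM. Foxp3 divided by Cd3e ranged from 0.0317 to 0.122 in ctrl, from 0.0694 to 0.112 with miR-142-5p, from 0.0299 to 0.0748 with miR-183-5p and from 0.0346 to 0.112 with miR-222-3p. Ccr7 divided by Cd3e was 0.491 in miR-142-5p tumour 3 and between 0.0468 and 0.338 in the other 11 tumours. Each ratio was compared with ctrl in each treated group, 12 two-sided exact permutation tests with n = 3 against 3, in which no p-value can be below 0.1. The exact p lay between 0.5 and 1 and the Benjamini-Hochberg adjusted p was 1 in all 12. The log2 differences from ctrl ran from -0.37 (Ccr7/Cd3e, miR-222-3p) to 0.74 (Cd4/Cd8a, miR-142-5p), each smaller than the SD of log2 ratios within 1 or both of the groups compared. Without miR-142-5p tumour 3, the difference of the miR-142-5p group from ctrl was 0.10 for Cd4/Cd8a (0.74 with it), 0.05 for Ccr7/Cd3e (0.59 with it), 0.20 for Cd4/Cd3e (0.50 with it) and 0.46 for Foxp3/Cd3e (0.59 with it).

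**Figure D5:**
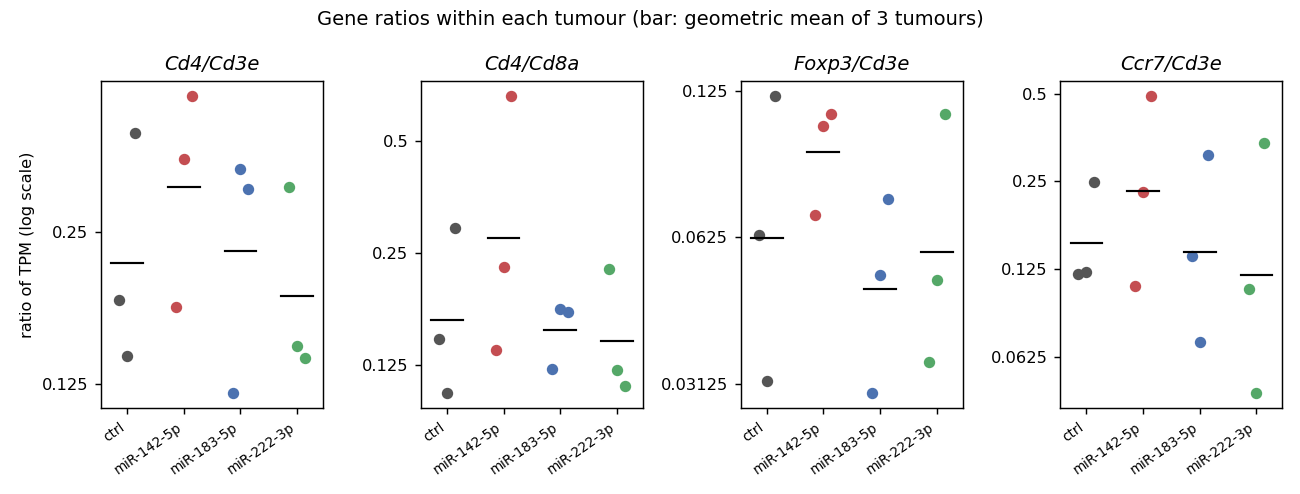
Ratio of TPM of 2 genes within each tumour (log scale, 1 panel per ratio, each with its own axis), with 1 point per tumour and the geometric mean of 3 tumours as a bar. The 4 groups overlap in each panel, and miR-142-5p tumour 3 is the highest of the 12 tumours in Cd4/Cd3e (0.464), Cd4/Cd8a (0.661) and Ccr7/Cd3e (0.491).

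Other genes of receptor signalling were taken as a list of 25 that are not among the members. None was called in any comparison with ctrl (DESeq2). Against ctrl, 7 of 25 had an unadjusted p under 0.05 with miR-142-5p, all higher (against 2.29% of all genes), 3 with miR-183-5p, all lower (against 1.59%), and 1 with miR-222-3p, higher (against 1.2%). These counts were 1, 3 and 1 without miR-142-5p tumour 3, against 3.07%, 3.31% and 2.37% of all genes in either direction. The median log2 fold change of the list was 0.38 with miR-142-5p (-0.01 without tumour 3), -0.10 with miR-183-5p and 0.00165 with miR-222-3p. Its lead gene Csk, the kinase that holds Lck inactive, stood at 230 TPM in miR-142-5p tumour 3 and between 130 and 213 TPM in the other 11 tumours. Summed over the list, the level in miR-142-5p tumour 3 was 1.53-fold the median of the other 11 tumours, against 4.12-fold for the members and 1.09-fold for the 10 cytotoxic and NK cell markers. Of those 10 markers, 4 were highest in miR-142-5p tumour 3, namely Cd8a (2.28-fold the median of the others), Cd8b1 (3.13-fold), the transcription factor Eomes (4.83-fold) and Nkg7 (1.40-fold). Their lead gene, the granzyme Gzmb, stood at 26.8 TPM there, inside the range of 17.3 to 67.7 TPM in the other 11 tumours. Of the remaining lists, dendritic cell markers summed to 68.7 TPM there (29.7 to 54.9 TPM elsewhere), endothelial markers to 103 TPM (64.3 to 116 TPM), macrophage markers to 1903 TPM (1174 to 2787 TPM) and neutrophil markers to 1022 TPM (880 to 3039 TPM).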

How the data were processed

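Polyadenylated RNA of 12 tumours was sequenced with a stranded kit. The authors quantified reads with Salmon (per the labels, on GRCm38), and the deposited tables hold, per transcript, the estimated count of reads and the TPM. The methods and the tables name different Ensembl releases. Of 118783 transcripts, 116710 (98.3%) matched GENCODE M21 by identifier and were summed to 35944 genes. Between 0.633% and 0.671% of the reads of a library did not match and were not used. Estimated counts, from 20285968 to 27021401 per library, were rounded to whole numbers. Within-group pairs of libraries differed by chi-square values of 14.0 to 60.2 per degree of freedom, so none was a copy.

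Genes with at least 10 counts in at least 3 libraries were fitted with DESeq2 1.42.0 (Wald test, group only, all 12 libraries, effective length as offset, unshrunken fold changes, Benjamini-Hochberg, threshold 0.05) in R 4.3.3. Alternatives were edgeR 4.0.16, limma 3.58.1, other scalings and filters, a replicate block, a library set term and each tumour left out. Scripts were tested on simulated data. Python 3.11.15, pandas 2.3.3 and scipy 1.17.1 made the tables, and the ratio tests took log2 of the TPM ratio.

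All 34 members are named. Fold changes with errors are given for 12 core members fixed by name, and for others where a call or a small count turned on them. They are also given where a seed match was followed up. Other genes come from fixed lists, each list's lead gene having the highest mean TPM. The members and lists were chosen with earlier results of these data known. Exons of 11 members overlap another annotated gene, 5 of them on the same strand, Foxp3 among them. The labels do not say whether tumours of a group shared a cage or a day, and p-values measure the spread between these tumours.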

Additional observations from a re-analysis of the deposited data

How the results depend on the processing

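Tumours carry the numbers 1 to 3 in each group. Residuals of tumours with the same number correlated from -0.442 to 0.217 (mean -0.0445), so no pairing by number was seen. With 3 tumours per group these correlations cannot exclude that tumours of the same number shared a cage or a day. With the number as a replicate block no member was called in any comparison, and the median log2 fold change of the members was 1.07 (miR-142-5p against ctrl), -0.136 (miR-183-5p against ctrl), 0.207 (miR-222-3p against ctrl), -1.18 (miR-183-5p relative to miR-142-5p), 0.859 (miR-142-5p relative to miR-222-3p) and -0.321 (miR-183-5p relative to miR-222-3p). The cause of the changes below was not tested. Against miR-142-5p, the threshold of 0.05 gave 0 calls with miR-183-5p, and an adjusted p under 0.1 gave 2 members. With only the 2 groups in the fit 1 member was called at 0.05, where 71 of 15485 genes were called. Without both miR-142-5p tumour 3 and miR-183-5p tumour 3, a choice made after seeing the data, the median was 0.212 for miR-142-5p against ctrl, -0.184 in miR-183-5p relative to miR-142-5p and 0.0153 in miR-142-5p relative to miR-222-3p. A term for the 2 library sets gave -0.835 in miR-183-5p relative to miR-222-3p. With that term the comparison rests on miR-183-5p tumour 3 alone against the miR-222-3p tumours. For the contrasts whose groups lie in different sets, where the term was added after seeing the data, it gave 0.493 for miR-222-3p against ctrl and 0.409 in miR-142-5p relative to miR-222-3p, and no member was called.

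Leaving out 1 tumour at a time, the members called ranged from 0 to 7 for miR-142-5p against ctrl, from 0 to 16 in miR-183-5p relative to miR-142-5p, from 0 to 1 in miR-142-5p relative to miR-222-3p and from 0 to 16 for any difference, each highest without miR-142-5p tumour 1. The median ranged from 0.213 to 1.47 for miR-142-5p against ctrl, from -1.56 to -0.351 in miR-183-5p relative to miR-142-5p, from 0.0151 to 1.29 in miR-142-5p relative to miR-222-3p, from -0.371 to -0.0375 for miR-183-5p against ctrl, from -0.0143 to 0.33 for miR-222-3p against ctrl and from -0.467 to -0.145 in miR-183-5p relative to miR-222-3p.

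Several core members changed sign. For miR-142-5p against ctrl, Lck was at 0.869 with all tumours and at -0.271 without both. For miR-183-5p against ctrl, the fit without both tumours gave Cd3e 0.178, Cd3g 0.177, Cd247 0.113, Zap70 0.248 and Tcf7 -0.0932, and the library set term gave Cd3e 0.179, Cd3g 0.177, Cd247 0.111, Zap70 0.242 and Tcf7 -0.0938. For this comparison the set term also sets miR-183-5p tumour 3 aside, so these fits are not separate checks. The block gave Tcf7 -0.00441, counts without the length offset gave Cd3d -0.127 and Il2ra -0.0111, and limma on log2(TPM + 0.1) gave Cd3d -0.00852. For miR-222-3p against ctrl, counts without the offset gave Cd4 -0.212, Lck 0.112 and Foxp3 -0.0308, and Ccr7 was at -0.107 with the block, -0.0705 in limma on log2(TPM + 0.1) and -0.0194 on log2(TPM + 1). There the library set term gave Lck 0.338, Tcf7 -0.042, Il7r -0.196 and Ccr7 -0.0796.

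With 1 tumour left out, signs changed within these ranges. Lck ran from -0.27 to 1.26 for miR-142-5p against ctrl. For miR-183-5p against ctrl, Cd3d ran from -0.19 to 0.324, Cd3e from -0.61 to 0.178, Cd3g from -0.464 to 0.176, Cd247 from -0.442 to 0.11, Cd4 from -0.617 to 0.199, Zap70 from -0.601 to 0.241, Tcf7 from -0.0948 to 0.106, Il2ra from -0.0741 to 0.612 and Ccr7 from -0.698 to 0.0537. For miR-222-3p against ctrl, Cd247 ran from -0.0331 to 0.413, Cd4 from -0.469 to 0.613, Foxp3 from -0.376 to 0.496, Il2ra from -0.227 to 0.567, Il7r from -0.177 to 0.766 and Ccr7 from -0.489 to 0.376. The log2 ratio differences from ctrl ran, for miR-183-5p, from -0.22 to 0.554 (Cd4/Cd3e), from -0.415 to 0.325 (Cd4/Cd8a), from -0.842 to 0.129 (Foxp3/Cd3e) and from -0.645 to 0.422 (Ccr7/Cd3e), for miR-142-5p from 0.196 to 0.927, from 0.104 to 1.24, from 0.0967 to 1.07 and from 0.046 to 1.13 in the same order, and for miR-222-3p from -0.58 to 0.208, from -0.52 to 0.22, from -0.589 to 0.382 and from -1.12 to 0.306 in the same order. Members under 1 TPM, such as Foxp3, rest on few reads.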
